A study of Mus musculus with 6 samples.

Results

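Genes for the synthesis and breakdown of biogenic amines were followed in RNA-seq libraries of embryonic mouse lung. They are Hdc, Pnmt, Ddc, Th, Dbh, Tph1, Maoa, Maob and Hnmt, 9 of the 24341 genes in the table, and all 9 were found by symbol. The set was put together from enzyme function and from a result of these same libraries, the higher Hdc and Pnmt in mutant lungs. Differences of the 9 genes between the genotypes are therefore given as a description, with no p-value.

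Whole lungs had been dissected from C57BL/6 embryos at E12.5. Controls, in 3 libraries, were Shh-Cre;Sin3a flox/+, and mutants, also in 3, were Shh-Cre;Sin3a flox/flox. All 6 libraries thus came from lungs that carried Shh-Cre and at least 1 floxed Sin3a allele, and no library without Cre was analysed here. Sin3a encodes the scaffold of a histone deacetylase corepressor, and Shh-Cre recombines floxed alleles in the lung endoderm, which gives rise to the epithelium. The labels do not say whether the libraries of a group came from separate litters or from pooled embryos, so the spread between them may be partly technical.

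Biogenic amines are small signalling molecules made from amino acids. Histidine decarboxylase (Hdc) makes histamine from histidine in 1 step. Catecholamines are made in a chain in which tyrosine hydroxylase (Th) makes L-DOPA, aromatic amino acid decarboxylase (Ddc) makes dopamine, dopamine beta-hydroxylase (Dbh) makes noradrenaline, and phenylethanolamine N-methyltransferase (Pnmt) makes adrenaline. Tryptophan hydroxylase 1 (Tph1) starts the synthesis of serotonin outside the brain, and Ddc completes it. Histamine N-methyltransferase (Hnmt) inactivates histamine, and the monoamine oxidases A and B (Maoa, Maob) break down amines in mitochondria. In adult lung, histamine comes mainly from mast cells and basophils, and serotonin is stored in pulmonary neuroendocrine cells. Adrenaline is best known from chromaffin cells of the adrenal medulla.

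Values are FPKM, fragments per kilobase of transcript scaled to the mapped fragments of the library, so levels of different genes can be set side by side. Read totals were not used here. Relative depth, read from low values, was 0.53 in control library 3 and 0.5 in mutant library 1 and 0.8 to 1.28 in the other libraries, taking control library 1 as 1. Low values are the least precise in those 2 shallow libraries. Sin3a itself, on chromosome 9 from 57072040 to 57128368 (GRCm38), measured 19.5, 18.6 and 18.6 FPKM in control libraries 1 to 3 and 18.8, 16.3 and 18.8 FPKM in mutant libraries 1 to 3 (exact permutation test, 2-sided, p = 0.6, where the smallest possible is 0.1). An FPKM over the whole gene and all lung cells does not check the deletion. All 8 lung epithelium and all 8 lung mesenchyme markers were above the floor of the table in the 2 groups. The floor is 0.01 FPKM, the value given where no expression was measured. Macrophage and platelet markers were above it too, so this does not tell lung from other tissue. Control library 2 and mutant library 1 held Y-linked transcripts (summed FPKM 76.7 and 79.5), against at most 0.218 FPKM in the other 4 libraries.

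**Figure D1:**
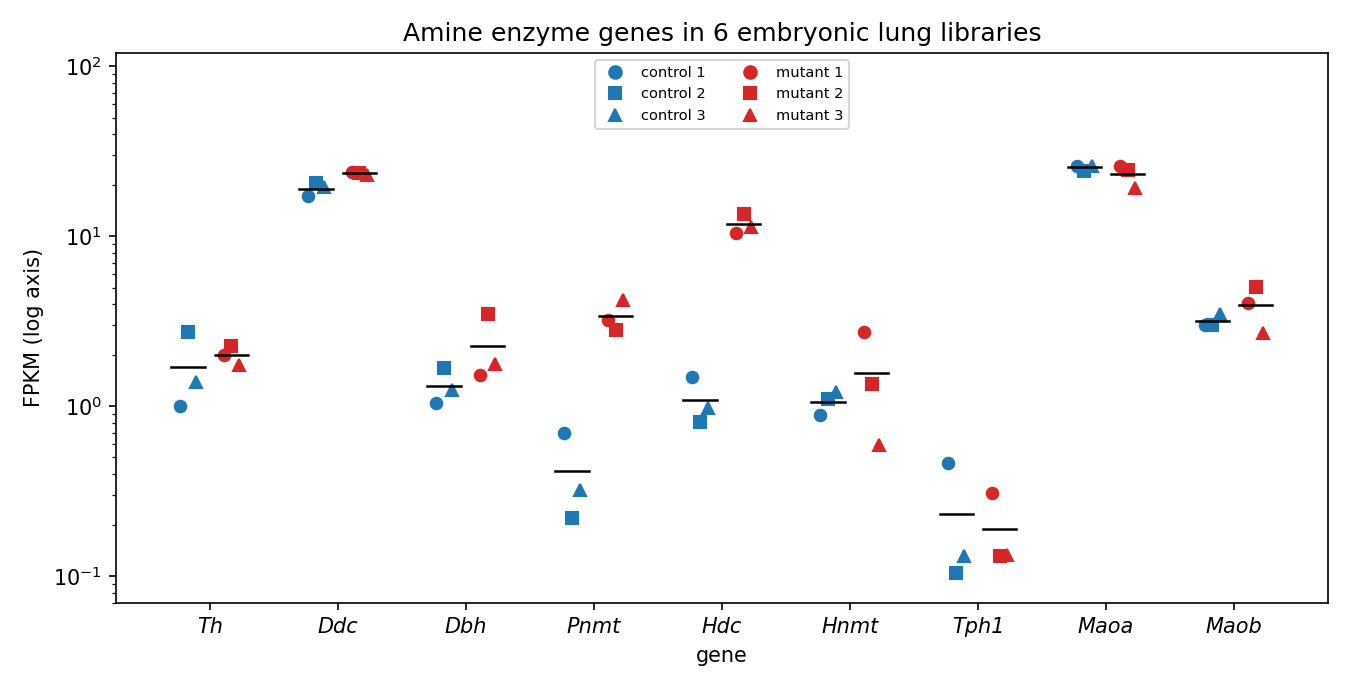
FPKM of the 9 amine enzyme genes (y axis, log scale) in 3 control libraries (blue) and 3 mutant libraries (red), with the marker shape giving the replicate number and black bars the group means. Hdc lies between 0.808 and 1.49 FPKM in controls and between 10.4 and 13.6 FPKM in mutants, and Pnmt between 0.22 and 0.699 FPKM and between 2.82 and 4.24 FPKM, while 6 of the 9 genes overlap between the groups.

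Hdc was the gene with the largest difference among the 9. On chromosome 2 from 126593660 to 126618678 (GRCm38), it measured 1.49, 0.808 and 0.981 FPKM in control libraries 1 to 3 and 10.4, 13.6 and 11.4 FPKM in mutant libraries 1 to 3. All 3 mutant libraries were high and the groups lay far apart. Group means were 1.09 ± 0.352 and 11.8 ± 1.67 FPKM (SD, n = 3 each), a ratio of 10.8. On the log2(FPKM + 1) scale, on which the tests over all genes ran, the difference was 2.62 (SE 0.16). That was the 9th highest difference among the 12742 genes whose mean over the 6 libraries reached 1 FPKM, the filter for testing. Hdc was chosen for this difference, and its rank describes the choice.

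Pnmt makes adrenaline from noradrenaline. Its locus, on chromosome 11 from 98386632 to 98388097 (GRCm38), holds no other gene of the table. Its FPKM was 0.699, 0.22 and 0.323 in the control libraries and 3.2, 2.82 and 4.24 in the mutant libraries, in the order of their numbers. Again the 3 mutant libraries were all above the 3 controls, with means of 0.414 ± 0.252 and 3.42 ± 0.73 FPKM (SD, n = 3 each), a ratio of 8.26. The log2 difference was 1.65 (SE 0.19), and a pseudocount of 0.1 in place of 1 gave 2.87, since the control values are low. Pnmt entered the tested genes only through its mutant libraries. Like Hdc it was chosen for its difference.

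The promoter window of Hdc is shown because Hdc carries the largest difference. It is set beside windows of Ddc, a related decarboxylase with a ratio of 1.23, and of Th, the first enzyme of the catecholamine chain, whose groups overlapped. Each runs from 250 bases before to 50 bases after a transcription start in RefSeq (GRCm38.p6), on the minus strand and printed 5′ to 3′. RefSeq windows were found for 7 of the 9 genes, in 9 windows (not for Pnmt or Maob). The Hdc window is chr2:126618629-126618928, and the windows of the 2 Ddc starts are chr11:11898095-11898394 and chr11:11890359-11890658. That of Th is chr7:142899946-142900245. Capitals mark matches to the motifs that were searched.
Hdc: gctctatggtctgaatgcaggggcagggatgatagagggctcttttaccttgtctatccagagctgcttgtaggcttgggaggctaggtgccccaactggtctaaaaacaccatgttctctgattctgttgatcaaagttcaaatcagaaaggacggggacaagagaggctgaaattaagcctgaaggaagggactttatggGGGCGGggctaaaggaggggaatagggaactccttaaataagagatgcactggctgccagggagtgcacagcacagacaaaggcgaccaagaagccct
Ddc, upstream start: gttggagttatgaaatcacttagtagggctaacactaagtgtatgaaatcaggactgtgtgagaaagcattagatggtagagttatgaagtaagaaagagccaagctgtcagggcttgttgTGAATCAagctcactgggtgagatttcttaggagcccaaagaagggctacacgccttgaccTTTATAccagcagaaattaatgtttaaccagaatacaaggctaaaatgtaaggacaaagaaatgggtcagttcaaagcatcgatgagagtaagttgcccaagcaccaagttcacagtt
Ddc, downstream start: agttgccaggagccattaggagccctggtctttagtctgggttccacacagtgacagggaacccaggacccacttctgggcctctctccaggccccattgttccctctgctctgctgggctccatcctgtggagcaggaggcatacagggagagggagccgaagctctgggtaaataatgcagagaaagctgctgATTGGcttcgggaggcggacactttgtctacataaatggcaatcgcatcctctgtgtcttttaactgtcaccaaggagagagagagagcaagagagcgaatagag
Th: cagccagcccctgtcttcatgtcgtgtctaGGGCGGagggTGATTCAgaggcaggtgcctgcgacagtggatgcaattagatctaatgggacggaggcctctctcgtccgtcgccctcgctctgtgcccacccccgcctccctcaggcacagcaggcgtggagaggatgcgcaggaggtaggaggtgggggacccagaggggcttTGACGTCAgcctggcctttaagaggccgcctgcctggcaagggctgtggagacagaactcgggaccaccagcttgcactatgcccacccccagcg

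Motifs were searched as exact letters on both strands, and a match is a description of the letters. The list was the GC box GGGCGG, the TATA box TATAAA, the CCAAT box CCAAT, the cAMP response element TGACGTCA, the E-box CACGTG, the EGR sites GCGTGGGCG and GCGGGGGCG (the last can overlap GGGCGG), the GATA site AGATAA and the Jun/Fos site TGANTCA. The Hdc window held 1 match, a GC box on the strand of the gene that begins 48 bases before the start. GC boxes were found in 4 of the 9 windows (those of Hdc, Th, Maoa and 1 start of Tph1), against 35.7% of all 32851 windows. The window of Th held the cAMP response element, beginning 45 bases before the start, which 1.79% of all windows hold, along with 1 GC box and 1 TGANTCA match. Of the Ddc windows, the upstream had TATAAA on the opposite strand and TGANTCA, and the downstream had CCAAT on the opposite strand. TATAAA is in 13.6%, CCAAT in 37.4% and TGANTCA in 7.81% of all windows. E-box, EGR and GATA letters were in 0 of the 9 windows, and 7.15%, 0.612%, 2.91% and 11.2% of all windows hold CACGTG, GCGTGGGCG, GCGGGGGCG and AGATAA.

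The enzymes upstream of Pnmt in the catecholamine chain differed much less between the groups. Ddc, which also serves serotonin synthesis, was abundant. Control libraries 1 to 3 had 17.2, 20.5 and 19.5 FPKM of Ddc, and mutant libraries 1 to 3 had 24, 23.5 and 23 FPKM. All 3 mutant libraries lay above the controls, by a small margin, with means of 19.1 ± 1.71 and 23.5 ± 0.513 FPKM (SD, n = 3 each), a ratio of 1.23 and a log2 difference of 0.29 (SE 0.10). The Ddc locus, on chromosome 11 from 11814101 to 11898144, is shared in the table with 1700042O10Rik, and the library kit does not keep strand. That gene was at 0.41 to 1.02 FPKM.

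Th, the rate-limiting enzyme of the chain, measured 1, 2.72 and 1.39 FPKM in controls and 2, 2.27 and 1.75 FPKM in mutants. Its highest and lowest values were both in control libraries, and the log2 difference was 0.20 (SE 0.23). Without control library 2, the highest, the difference was 0.45, and without control library 1, the lowest, it was 0.01. Dbh, which makes noradrenaline in vesicles, measured 1.05, 1.67 and 1.24 FPKM in controls and 1.53, 3.49 and 1.77 FPKM in mutants. The groups overlapped, and mutant library 2 stood above the rest. The log2 difference of Dbh was 0.45 (SE 0.24) with all libraries and 0.20 without mutant library 2.

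Tph1 was low in both groups, though above the floor in all 6 libraries, and with a mean of 0.212 FPKM it was not tested. Its values were 0.461, 0.104 and 0.132 FPKM in controls and 0.308, 0.131 and 0.133 FPKM in mutants, so that replicate 1 of each group was the highest. Of the breakdown enzymes, Hnmt was the least even among mutants. It measured 0.887, 1.1 and 1.21 FPKM in controls and 2.73, 1.36 and 0.595 FPKM in mutants, with the highest and the lowest of all 6 values in mutant libraries 1 and 3. Its log2 difference of 0.23 (SE 0.29) became -0.09 without mutant library 1.

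Maoa and Maob lie next to each other on the X chromosome, 21468 bases apart, and had unequal levels. Maoa measured 25.9, 24.3 and 26.1 FPKM in controls and 26.1, 24.6 and 19.2 FPKM in mutants. The groups overlapped, with mutant library 3 the lowest, and the log2 difference was -0.13 (SE 0.12), or -0.01 after rescaling without globin and small RNA genes. Maob, at 3.03, 3.02 and 3.51 FPKM in controls and 4.05, 5.06 and 2.7 FPKM in mutants, also overlapped, with a log2 difference of 0.21 (SE 0.19). In the 2 libraries with Y-linked transcripts, control 2 and mutant 1, Maoa was at 24.3 and 26.1 FPKM and Maob at 3.02 and 4.05 FPKM, within the range of the libraries that lacked them.

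In control lungs the order of mean levels, per length, was Maoa (25.4 FPKM), Ddc (19.1), Maob (3.19), Th (1.71), Dbh (1.32), Hdc (1.09), Hnmt (1.07), Pnmt (0.414) and Tph1 (0.232). Neighbours in this order overlapped between libraries from Th through Hnmt and for Pnmt with Tph1, and were apart elsewhere. In mutant lungs Ddc (23.5 FPKM) and Maoa (23.3) overlapped at the top and Hdc was the third (11.8), apart from both its neighbours. Next in mutants came Maob (3.94), Pnmt (3.42), Dbh (2.26), Th (2.0) and Hnmt (1.56), each overlapping the next, and Tph1 (0.191) was last and apart. Hdc moved from the sixth to the third place and Pnmt from the eighth to the fifth.

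Of the 9 genes, 8 passed the filter on low values, Pnmt only through its mutant libraries, and Tph1 did not. By limma at an adjusted p under 0.05, 2 of the 8 were called higher (Hdc and Pnmt, the latter not without control library 3) and 0 lower. Among all tested genes 3.34% were called, 1.71% higher and 1.63% lower. The choice of the set fixed this count, and nothing is read from it. Groups did not overlap for 3 of the 9, Hdc, Pnmt and Ddc, with all mutant libraries above. Among all tested genes 29.5% had groups without overlap, 14.9% with all mutant libraries above and 14.6% with all below. Rescaling without globin and small RNA genes moved the median difference of all genes up by 0.114, and the differences of Hdc and Pnmt were 2.71 and 1.72 on that scale.

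Other genes of the amine pathways, from 9 lists of cofactor enzymes, further enzymes, transporters, receptors and transcription factors, gave little that was called. Of 85 genes, 32 were tested, 0 rose and 1 fell by limma, which is near the 3.34% of all tested genes. An unadjusted p under 0.05 was found for 7 of the 32 (2935 of the 12742 tested genes had one). The median log2 difference was -0.07, beside -0.01 for all tested genes. Of the 32, 3 had all mutant libraries above and 4 all below the controls, where 14.9% and 14.6% of all tested genes did. Among the untested genes, at low values, Gad1 (0.264 ± 0.125 and 0.611 ± 0.0489 FPKM), Slc18a1 (0.615 ± 0.138 and 0.884 ± 0.236 FPKM) and Htr2a also had all mutant libraries above. Htr4 had all below. The gene that fell was Pcbd1.

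Synthesis of tetrahydrobiopterin, the cofactor that Th and Tph1 need, held that gene. Pcbd1 encodes the dehydratase that recycles the cofactor, and its protein also binds the transcription factor HNF1. It measured 32.9, 28.8 and 30.2 FPKM in controls and 18.5, 19.8 and 21.6 FPKM in mutants, with all mutant libraries below the controls. Pcbd1 fell 1.53-fold (log2 difference -0.59, SE 0.10, adjusted p = 0.0285 by limma). The call ended without any 1 of the 3 control libraries, without mutant library 2 and with a replicate block (adjusted p up to 0.135 over all alternatives). Of the 8 genes in this list all were tested, 0 rose, 1 fell and 3 had an unadjusted p under 0.05. Pts, a synthase gene of the cofactor, had a log2 difference of -0.39 (adjusted p = 0.214). Qdpr, the dihydropteridine reductase gene and the most abundant member, had 89.8 ± 3.99 and 91.1 ± 6.93 FPKM (SD, n = 3).

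In the list for pyridoxal phosphate, the cofactor of Hdc and Ddc, and for the methyl donor of Pnmt and Hnmt, 0 of 6 tested genes were called and 1 had an unadjusted p under 0.05. That gene was Pdxp, a pyridoxal phosphate phosphatase, with 19.5 ± 2.22 and 14.9 ± 1.97 FPKM (SD, n = 3, adjusted p = 0.154). Mat2a, which makes the methyl donor S-adenosylmethionine, had 236 ± 11.3 and 196 ± 30.9 FPKM (adjusted p = 0.228). Ahcy, which clears the product of methyl transfer, had a log2 difference of -0.25 (adjusted p = 0.404).

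Among 20 other amine enzymes, 8 were tested and 0 called, with 1 at an unadjusted p under 0.05. Csad, a decarboxylase of taurine synthesis related to Hdc and Ddc, measured 17.3, 16.6 and 15.2 FPKM in controls and 21.5, 21.4 and 21.4 FPKM in mutants. Its groups did not overlap, and its log2 difference of 0.37 (SE 0.09) had an adjusted p of 0.0648, or 0.0219 after that rescaling. Moxd1, a relative of Dbh, had 8.9 ± 4.49 and 5.76 ± 1.45 FPKM (adjusted p = 0.386), with its highest value, 14 FPKM, in control library 2. Akr1a1, an aldehyde reductase gene that acts on aldehydes made by the monoamine oxidases, was the most abundant at 604 ± 54.2 and 661 ± 24.7 FPKM (adjusted p = 0.423). Asmt, which makes melatonin, was at the floor in all 6 libraries.

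Few amine transporters were expressed at 1 FPKM or more. Of 10, 3 were tested, 0 were called and 0 had an unadjusted p under 0.05. Slc18a2, the vesicular monoamine transporter that loads histamine and catecholamines into vesicles, had 2.97 ± 0.619 and 3.0 ± 0.823 FPKM (95% interval of the log2 difference -0.45 to 0.45, adjusted p = 0.994). Slc29a4, a monoamine transporter of the plasma membrane, had a log2 difference of -0.23 (adjusted p = 0.624), and Cyb561, which supplies electrons for Dbh in vesicles, of -0.29 (adjusted p = 0.447). The noradrenaline transporter gene Slc6a2 did not exceed 0.0674 FPKM in any library.

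Receptor genes for histamine were nearly undetected. Hrh1, Hrh3 and Hrh4 were at the floor in all 6 libraries, and Hrh2 was above it in control library 1 (0.126 FPKM) and mutant libraries 1 and 3 (0.218 and 0.31 FPKM). Of 9 adrenergic receptors 2 were tested, 0 were called and 1 had an unadjusted p under 0.05. Adra1b, an alpha-1 receptor gene, measured 1.88, 0.939 and 1.07 FPKM in controls and 2.36, 2.83 and 2.94 FPKM in mutants. These groups did not overlap, and the log2 difference of 0.71 (SE 0.18) had an adjusted p of 0.0778, or 0.0326 after rescaling. No dopamine, trace amine or serotonin receptor gene reached a mean of 1 FPKM over the 6 libraries. The highest in each list by that mean were Drd4, at 0.993 ± 0.0869 and 0.894 ± 0.149 FPKM, and Htr3a, at 0.662 ± 0.456 and 0.932 ± 0.0292 FPKM. Htr2a was higher in mutants with no overlap, at 0.535, 0.484 and 0.233 FPKM in controls and 1.46, 0.772 and 0.807 FPKM in mutants. Htr4 lay the other way, at 0.0157 to 0.0636 FPKM in controls and at the floor in all mutant libraries.

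Of 8 transcription factor genes that are known to act on Hdc or Pnmt, 5 were tested and 0 called, with 1 at an unadjusted p under 0.05. Nr3c1, the glucocorticoid receptor, through which steroids raise Pnmt in chromaffin cells, measured 8.24, 7.86 and 7.57 FPKM in controls and 13.2, 12.9 and 9.21 FPKM in mutants. All mutant libraries were above the controls, mutant library 3 the least. The log2 difference of 0.51 (SE 0.14) had an adjusted p of 0.099, or 0.0343 without mutant library 3 and 0.0347 after rescaling. Egr1, an activator of Pnmt, had 2.21 ± 0.46 and 2.73 ± 0.644 FPKM (adjusted p = 0.507). Sp3, a GC box factor and the most abundant of the list, had 43.2 ± 1.56 and 38.7 ± 10.2 FPKM (adjusted p = 0.57).

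**Figure D2:**
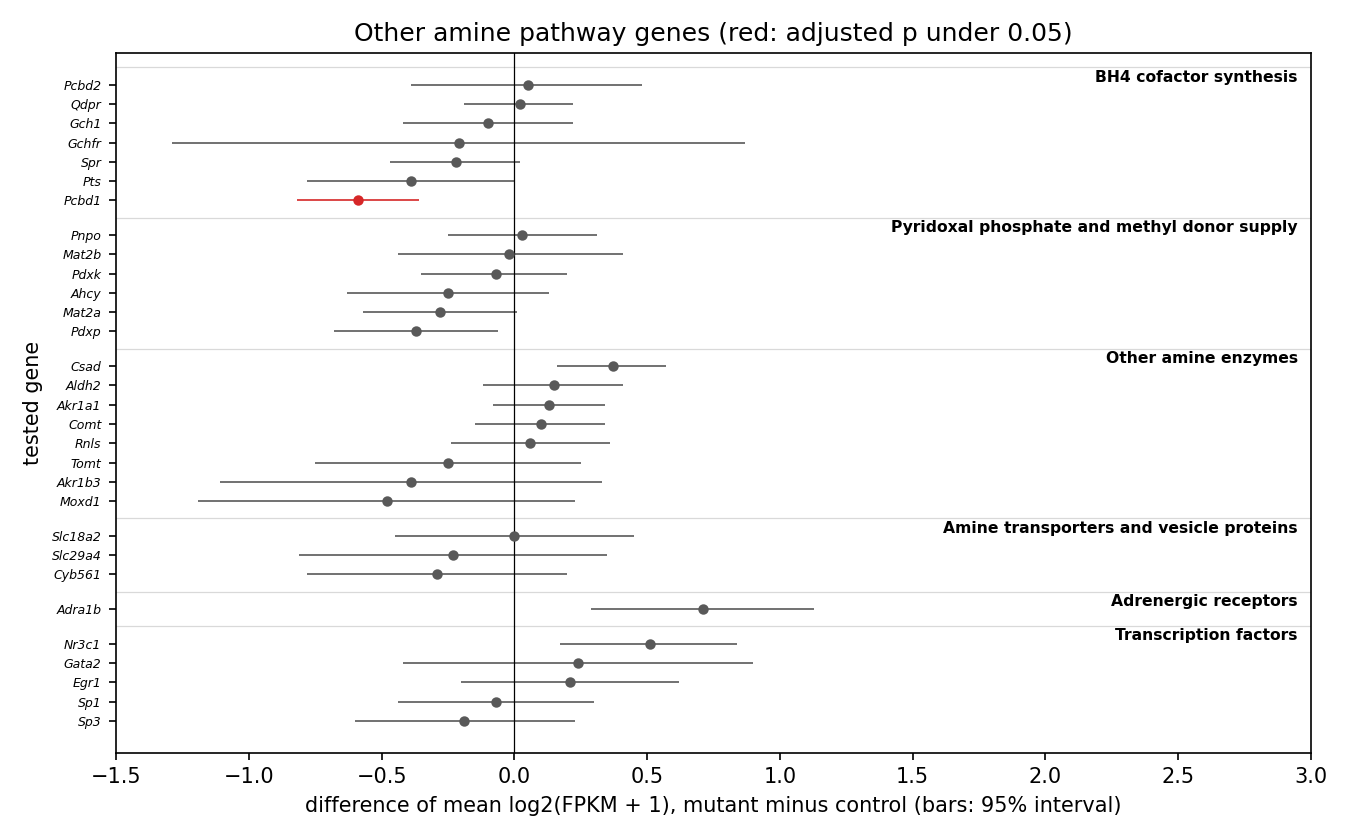
Difference of mean log2(FPKM + 1), mutant minus control, with its 95% interval (x axis) for 30 of the 32 tested genes of the amine pathway lists (y axis, grouped by list). Pcbd1, in red at -0.59, is the gene with an adjusted p under 0.05, and Adra1b (0.71), Nr3c1 (0.51) and Csad (0.37) have the highest differences.

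Markers of cells that are known to hold amines were read beside Hdc and Pnmt as summed FPKM per library. In bulk lung, a larger number of cells of a type and more RNA per cell cannot be told apart. The mast cell and basophil sum was 10.5 to 10.6 FPKM in controls and 19.4 to 26.1 FPKM in mutants. That difference lay in Kit and Hpgds, which other lung and blood cells also express. Kit, a receptor of stem cell factor, measured 6.41 ± 0.189 and 18.1 ± 1.96 FPKM and rose (SD, n = 3, log2 difference 1.36, SE 0.11, adjusted p = 0.00167 by limma, at most 0.0257 over 16 alternatives). Hpgds, a prostaglandin D synthase gene, had 1.86 ± 0.235 and 3.41 ± 1.11 FPKM (adjusted p = 0.149). Of 12 markers, 3 were tested, 1 rose and 0 fell. At the floor were 3 markers in all control libraries and 5 in all mutant libraries. The 5 in mutants were the protease genes Tpsb2, Tpsab1, Mcpt4 and Mcpt8 and the receptor gene Mrgprb1. Cpa3, a mast cell protease gene, had 1.83 ± 0.372 and 1.49 ± 0.812 FPKM (adjusted p = 0.61 by limma). Fcer1a and Ms4a2, of the high-affinity IgE receptor, had means of at most 0.105 FPKM in either group. The part of mast cells and basophils in the Hdc difference was not tested.

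Myeloid lists behaved differently from each other. Granulocyte sums overlapped, at 30.3 to 220 FPKM in controls and 9.87 to 146 FPKM in mutants. The most abundant granulocyte genes, S100a8, S100a9 and Camp, had adjusted p-values of 0.626, 0.743 and 0.81 by limma. Of 7 tested members, 0 had an unadjusted p under 0.05, and all 7 had log2 differences under 0. Under the filter were 2 more. Csf3r was higher in mutants with no overlap (0.491 ± 0.0308 and 0.913 ± 0.261 FPKM), and Elane overlapped. The part of granulocytes in the Hdc difference was not tested. Macrophage sums did not overlap, at 181 to 240 and 309 to 442 FPKM, and 2 of 11 tested members rose and 0 fell (all 11 had an unadjusted p under 0.05), with a median log2 difference of 0.71. The 2 were Tyrobp, a signalling adaptor gene (54.5 ± 5.27 and 89.9 ± 13.1 FPKM, adjusted p = 0.0365), and Cx3cr1, a chemokine receptor gene (3.15 ± 0.185 and 5.3 ± 0.721 FPKM, adjusted p = 0.0496). Without any 1 of the control libraries or without mutant library 2, both calls ended, and without mutant library 3 that of Cx3cr1. The abundant members Fcer1g and C1qb had log2 differences of 0.57 and 0.96 (adjusted p = 0.0889 and 0.137). Macrophage markers thus moved with Hdc, by a ratio of summed means of 1.68 against 10.8 for Hdc, and their part in the Hdc difference was not tested.

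Neural and neuroendocrine lists, where Th, Dbh and Ddc are known, had overlapping groups. Sympathetic and chromaffin lineage sums were 35.6 to 64.8 FPKM in controls and 34.6 to 45.7 FPKM in mutants, with 0 of 8 tested members called and 0 at an unadjusted p under 0.05. Isl1, Stmn2 and Sox10, the most abundant of that list, had adjusted p-values of 0.812, 0.993 and 0.713. Pulmonary neuroendocrine sums were 9.92 to 18.1 and 9.63 to 16.6 FPKM, with 0 of 4 tested members called and 0 at an unadjusted p under 0.05. Calca, a neuropeptide gene, had 4.32 ± 0.636 and 4.74 ± 0.454 FPKM (adjusted p = 0.648), and Scg5, a secretory granule gene, 2.58 ± 1.32 and 2.18 ± 0.695 FPKM (adjusted p = 0.829). Platelet sums, at 133 to 184 and 116 to 158 FPKM, overlapped too, with 0 of 6 tested members called and 0 at an unadjusted p under 0.05. Their most abundant genes, Pf4, Ppbp and Gp9, had adjusted p-values of 0.568, 0.496 and 0.894. Of the 2 platelet markers under the filter, Gp1ba was higher in mutants with no overlap (0.214 ± 0.115 and 0.612 ± 0.192 FPKM), and Gp6 overlapped.

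Heart tissue can come with a dissected lung, and the embryonic heart is a known place of Pnmt expression. Heart muscle sums did not overlap, at 167 to 225 FPKM in controls and 288 to 413 FPKM in mutants. Of 5 tested members 2 rose and 0 fell, with a median log2 difference of 0.85. Myl7, an atrial myosin light chain gene, had 132 ± 15.4 and 238 ± 19.1 FPKM (adjusted p = 0.0126, at most 0.0863 over its alternatives, the call ending without control library 2 or 3 or mutant library 2). Myl4, another atrial light chain gene, had 15.6 ± 4.6 and 38.1 ± 9.65 FPKM (adjusted p = 0.0382), a call that held, among the fits with 1 library left out, only without mutant library 1. Actc1, the cardiac actin gene, had 37 ± 9.05 and 44.6 ± 27.9 FPKM (adjusted p = 0.901). Nppa, also tested, had 1.06 ± 1.51 and 1.25 ± 1.07 FPKM (adjusted p = 0.807 by limma), with overlap. Tnnt2, a cardiac troponin gene, had 7.31 ± 2.2 and 16.8 ± 6.75 FPKM (adjusted p = 0.122 by limma), with no overlap. Of the markers under the filter, Myh6, an atrial myosin heavy chain gene, measured 0.195, 0.156 and 0.0735 FPKM in controls and 0.249, 3.08 and 1.61 FPKM in mutants, again with no overlap, and its ratio of means was 11.6. Myh7 and Nkx2-5, with means of at most 0.197 FPKM, overlapped. The part of heart muscle in the Pnmt difference was not tested.

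Markers of lung epithelium, the tissue in which Shh-Cre acts, were lower in mutants, with sums of 201 to 249 and 52.9 to 69.7 FPKM. Fewer epithelial cells and less marker RNA per cell cannot be told apart here. Mesenchyme sums were 726 to 877 and 1070 to 1190 FPKM, and the higher sum lay in 2 collagen genes, Col3a1 (379 ± 52.1 and 605 ± 33.1 FPKM) and Col1a2 (168 ± 14.1 and 287 ± 36.5 FPKM). Of 8 epithelium markers 7 fell and 0 rose, namely Sftpc, Krt8, Krt18, Foxa1, Epcam, Nkx2-1 and Foxa2, with a median log2 difference of -1.35. Of 8 mesenchyme markers 4 rose (Fgf10, Pdgfra, Col1a2 and Col3a1) and 2 fell, the transcription factor gene Foxf1 (71.2 ± 5.4 and 34.6 ± 3.42 FPKM) and the ligand gene Wnt2 (87.5 ± 4.26 and 49.4 ± 2.85 FPKM). With 1 library left out, the calls of Sftpc, Krt8, Krt18, Foxf1 and Wnt2 held each time and the others did not (at most 0.156 for any of them over the alternatives). Hdc and Pnmt thus were high in the libraries with the lowest epithelial sums. Whether their transcripts came from epithelial or other cells was not tested.

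**Figure D3:**
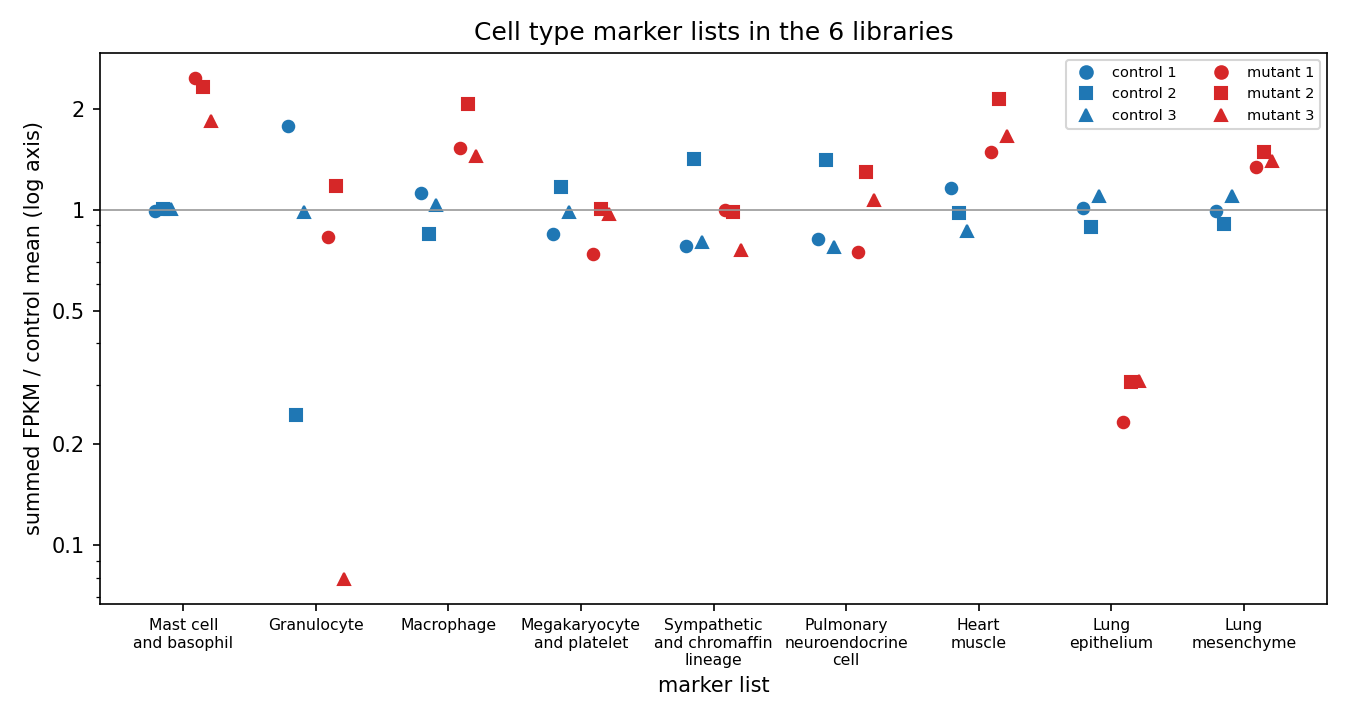
Summed FPKM of 9 cell type marker lists (x axis) in each library, divided by the mean of the 3 control libraries (y axis, log scale), for controls in blue and mutants in red. The mast cell and basophil, macrophage, heart muscle and mesenchyme lists lie above all controls in the 3 mutant libraries, the epithelium list lies below, and the other 4 lists overlap.

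The genes most like Hdc and Pnmt in pattern were found as those with the smallest root mean square difference of log2(FPKM + 1) over the 6 libraries, after each gene was centred on its mean. Likeness here mostly restates the difference between the groups. Nearest to Hdc were Sftpa1 (0.36), a surfactant protein gene, Reg4 (0.37), a secreted lectin gene, and Pthlh (0.45), which encodes a peptide related to parathyroid hormone. Sftpa1 measured 3.73, 1.29 and 2.3 FPKM in controls and 23.2, 31.2 and 33.9 FPKM in mutants. The order of the control libraries was that of Hdc, while in mutants Sftpa1 was highest in library 3 and Hdc in library 2. Reg4 was at 0.0724 to 0.182 FPKM in controls and 2.82 to 6.72 FPKM in mutants, and Pthlh at 0.497 to 1.29 and 4.53 to 6.91 FPKM. Pnmt was the 5th nearest gene to Hdc (0.53), while Hdc was the 148th nearest to Pnmt. Nearest to Pnmt were Galnt14 (0.18), a gene of O-linked glycosylation, the glucose transporter gene Slc2a3 (0.23) and the aldehyde oxidase gene Aox3 (0.23). Galnt14 had 1.25 ± 0.148 and 5.45 ± 0.213 FPKM (SD, n = 3), Slc2a3 9.08 ± 0.88 and 30.9 ± 8.14 FPKM, and Aox3 0.267 ± 0.1 and 2.24 ± 0.14 FPKM. Slc2a3, like Pnmt, had its highest value in mutant library 3 (40.3 FPKM).

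**Figure D4:**
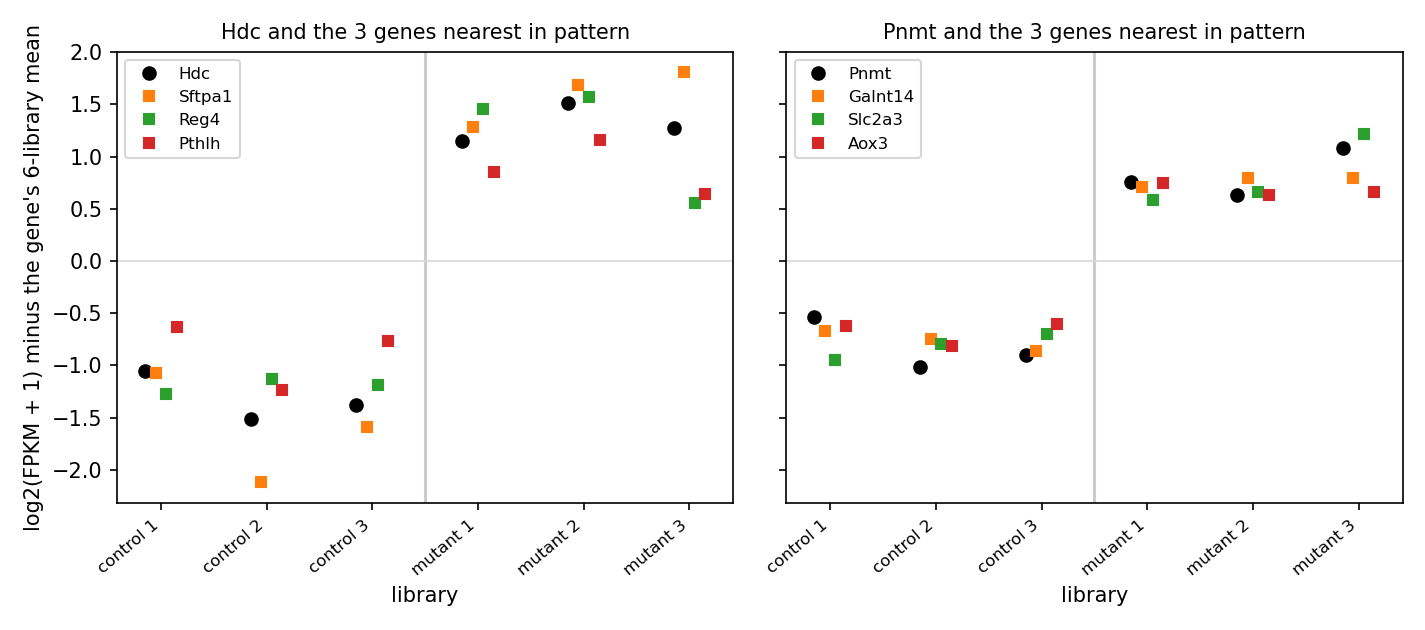
log2(FPKM + 1) of each gene minus its own mean over the 6 libraries (y axis) by library (x axis) for Hdc (left) and Pnmt (right), black, with the 3 genes nearest in pattern, coloured. All 8 genes lie below 0 in the 3 control libraries and above 0 in the 3 mutant libraries.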

How the data were processed

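RNA had been extracted from dissected embryonic lungs, amplified as cDNA (SMARTer Ultra Low Input v3), and sequenced as 75 bp read pairs, per the labels' protocols. The authors deposited FPKM values per gene and library. TopHat, Bowtie2 and Cufflinks and the genome mm10 (GRCm38) are named in the submitters' processing notes, and the sources used here do not give their roles and versions. Of 24341 genes, 3 carried a failure mark in 1 library and were left out. Loci are counted from 1.

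The permutation test of Sin3a used FPKM, and the limma tests used log2(FPKM + 1). The 12742 genes that reached a mean of 1 FPKM were compared by limma 3.58.1 (R 4.3.3) with an intensity trend and 2-sided p-values adjusted by Benjamini-Hochberg, and under 0.05 counted as called. The fit was tested on simulated data. Fold changes on this scale understate those of low genes. Read totals were not used, so no counting error is given. Members and lists were chosen with earlier results of these data known. Named were the 9 members and Sin3a, called genes, up to 3 genes of smallest p and the most abundant gene of each pathway list, the called and the 3 most abundant genes of each marker list, and the 3 nearest genes to Hdc and Pnmt, without Gm, Rik and small RNA models. Other genes named were chosen after their values were seen. Ly6g was not analysed here, and some genes that the lists count are not reported here by name. Alternatives were pseudocounts of 0.1 and 0.5, other filters, scalings and variance steps, a Y-linked covariate, a replicate block and leaving out each library. Plots were made with matplotlib 3.10.9 in Python 3.11.15.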

Additional observations from a re-analysis of the deposited data

How the results depend on the processing

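Hdc and Pnmt were chosen for their difference, and Pnmt passed the filter only through mutant libraries, so the values here describe its size and support nothing. With 1 library left out the log2 differences were 2.52 to 2.75 and 1.52 to 1.79. A pseudocount of 0.1 gave 3.35 and 2.87, and one of 0.5 gave 2.97 and 2.12, since control values are low. Of 32 tested amine pathway genes, 1 was called, and 4 after rescaling without globin and small RNA genes (Pcbd1, Csad, Adra1b and Nr3c1). The count with 1 library left out was 0 to 2, being 0 without any 1 of the control libraries or mutant library 2. Over all genes 426 were called, 242 with no filter, and 1014 after that rescaling (841 higher, 173 lower, 17.1% lower against 48.8%). With 1 library left out this number was 52 to 795: 61, 66 and 64 without control libraries 1, 2 and 3, and 795, 52 and 283 without mutant libraries 1, 2 and 3. Sin3a had log2 differences of -0.11 to -0.01 with 1 library left out.

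With the replicate number as a block, 52 of all genes and 0 amine pathway genes were called. Same-numbered libraries share only a number: their deviations from the group means correlated at -0.089, -0.078 and -0.026 over genes, and no library correlated best with its own number. The limit on Pnmt, Tph1 and the receptors is their low level, where few fragments stand behind a value and the shallower libraries, control 3 and mutant 1, are the least precise.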

Other observations

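Genes within 30000 bases of the enzyme loci were read for differences of their own. Besides the members there were 17, of which 9 were tested. By limma 1 rose and 1 fell, where 3.34% of all tested genes were called. An unadjusted p under 0.05 was found for 4 of the 9, where 2935 of the 12742 tested genes had one. The genes named here were chosen after their values were seen. Erbb2, a receptor tyrosine kinase gene near Pnmt on chromosome 11, rose from 20.7 ± 0.501 to 28.8 ± 1.8 FPKM (SD, n = 3, log2 difference 0.46, SE 0.09, adjusted p = 0.0386, up to 0.169 over 16 alternatives). With 1 library left out its call held only without mutant library 1. Mien1, which shares a locus with Erbb2 in the table, had 50.2 ± 3.31 and 50.7 ± 4.03 FPKM (adjusted p = 0.956), and Pgap3, the nearest gene to Pnmt, 4.28 ± 1.18 and 5.38 ± 1.26 FPKM (adjusted p = 0.462). Stard3, on the other side, had 18.6 ± 2.67 and 22.5 ± 1.39 FPKM (adjusted p = 0.245), with no overlap. Of the untested genes on that side, Ppp1r1b had 0.01 to 0.395 FPKM in controls and 0.547 to 0.709 FPKM in mutants, with no overlap. Tcap (0.244 ± 0.207 and 0.777 ± 0.397 FPKM) and 1700003D09Rik overlapped.

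Beside Ddc, the gene Fignl1, which encodes an ATPase of DNA repair, fell from 77.6 ± 5.86 to 52.9 ± 4.9 FPKM (SD, n = 3). The log2 difference was -0.55 (SE 0.10, adjusted p = 0.0366 by limma). How the call of Fignl1 fared over the alternatives is not reported here. Beside Hdc, 1 of 2 neighbours was tested, and it was not called. That gene, Gabpb1, a transcription factor subunit gene, had 30.7 ± 1.84 and 25.8 ± 3.56 FPKM (adjusted p = 0.259), while Slc27a2, a fatty acid transport gene and the untested neighbour, lay at 0.36 to 0.519 FPKM in controls and 0.108 to 0.279 FPKM in mutants, with no overlap and in the direction opposite to Hdc.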
